A study of Mus musculus with 6 samples.

Results

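The heat shock and DnaJ chaperones described here are 65 genes of the 27998 in a single-cell count table from mouse lung. They were picked by a rule on symbol and depth, set with earlier results of these data known. The rule takes every row whose symbol starts with Hsp followed by a family letter or digit, or with Dnaja, Dnajb or Dnajc. A row also needed 50 or more UMIs over all barcodes, and Hspg2 and pseudogenes were left out. A UMI (unique molecular identifier) is a tag that lets 1 captured RNA molecule be counted once. The pattern matched 74 symbols, and 9 of them were under the minimum, among them Hspa1l with 19 UMIs and Dnajc6 with 17. The 65 members held 178657 UMIs, 0.507% of the 35262820 in the table. By textbook role they were sorted into 8 heat-inducible members, 21 constitutive members of the cytosol and nucleus, 13 of the endoplasmic reticulum, 10 of mitochondria, Dnaja1 as an intermediate case and 12 others. These groups, too, were drawn up with those earlier results known.

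Chaperones bind unfolded or partly folded proteins and help them to fold, to cross membranes or to be degraded. Hsp70 proteins (Hspa genes) do this by cycles of ATP hydrolysis that J-domain proteins (Dnaj genes) start, Hsp90 proteins mature kinases and steroid receptors, and small heat shock proteins (Hspb genes) hold unfolded clients without ATP. Inducible members are transcribed by heat shock factor 1 when unfolded proteins build up, and tissue digestion and warming are known to raise some of them, whereas constitutive members serve protein synthesis and trafficking in unstressed cells.

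The labels name 6 samples with 1 sample each. All came from lungs of SMA-GFP;Tbx4cre;RosaTdTomato mice, which carry a GFP reporter of smooth muscle actin and a tdTomato reporter switched on by Cre expressed from Tbx4. On day 21, mice that had received bleomycin, a drug that injures the lung, gave SMA+Tm+, SMA-Tm+ and SMA-Tm- cells, and day 0, normal mice, gave the same 3 populations. Lungs were dissociated with elastase and DNase I, and viable cells negative for Epcam, CD31 and CD45 were sorted. Strain, age and the number of mice per sample are not in the labels. All samples share 1 table, in which each barcode name carries 1 of the suffixes 1 to 6, but no label or file used here says which sample a suffix stands for. Bleomycin was therefore not compared with normal lung, nor 1 sort population with another. What the table allows is to set cell classes against each other within each suffix, which bears on how chaperone transcripts divide among the lung's cell types.

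After filtering, 9919 cells remained, 683 to 2990 a suffix, with a median of 1783.5 to 3633.5 UMIs a cell. Fibroblasts (cells of fibroblast clusters with 3 or more Col1a2 and Col3a1 UMIs) numbered 541, 42, 34, 1789, 37 and 29 in suffixes 1 to 6, endothelium (2 or more Pecam1 and Cdh5 UMIs) 89, 155, 78, 96, 137 and 54, and leukocytes 427, 1582, 1153, 752, 1281 and 529. Leukocytes were thus the largest class, 5724 cells, although the labels describe CD45-negative cells, and the endothelium was present although they describe CD31-negative cells. Each class was highest in its own marker list. The endothelial list summed to 12840 counts per 1000000 UMIs (CPM) in endothelium and 99.2 in fibroblasts. The leukocyte list summed to 3935 CPM in leukocytes and 36.9 in fibroblasts. All these lists but the leukocyte list also served to name the clusters, and the endothelial list holds Pecam1 and Cdh5, which define that class. Their contrasts were thus largely set by how the classes were made. In the endothelium the leukocyte list summed to 354 CPM. The fibroblast transcript Col1a2 was at 8.74, 0.559, 0.824, 20.7, 0.689 and 0.991 CPM in leukocytes of suffixes 1 to 6, against 1126 to 2537 CPM in fibroblasts. Leukocytes had to fall below both UMI minimums, that of fibroblasts and that of endothelium, so their Col1a2 was limited by selection. The part of free RNA and doublets in low leukocyte levels was not tested. The haemoglobin transcript Hba-a1 was at 972 CPM in leukocytes of suffix 6 and at 1.5 to 22.0 in the others. Over all barcodes before filtering, 55 barcode sequences occurred in more than 1 suffix. Among the filtered cells, 94 shared a barcode sequence with a cell of another suffix.

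The promoters of the members that the results turn on are shown first. The RefSeq table for GRCm38.p6 had 53 of the 65 members among its 27025 genes, and the 250 bases before each start were searched on both strands. The heat shock element was searched in a short form with units facing each other (GAANNTTC or TTCNNGAA) and in a longer form with a further unit (GAA, TTC and GAA, or TTC, GAA and TTC, with any 2 bases between neighbouring units), which always holds the short form. The short form was in 14.5% of all promoters and in 5 of 7 inducible members with a promoter, 71.4%, against 3 of 17 constitutive members, 17.6%. The inducible members with a match are these, with the element in capitals, printed on the strand of the gene:
Hspa1a, chr17:34972247-34972266, minus strand: ctgctgGAAGATTCctggcc
Hspa1b, chr17:34959329-34959348, minus strand: ctgctgGAAGATTCctggcc
Hsph1, chr5:149636356-149636375, minus strand: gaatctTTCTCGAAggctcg
Dnajb4, chr3:152193846-152193865, minus strand: tcgctgTTCTAGAAagtaca

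The stretches of Hspa1a and Hspa1b are the same 20 letters, at the same distance before each start, in a pair of neighbouring genes that encode nearly the same Hsp70 protein. The matches of Hspa1a and Hspa1b start 104 bases before the gene's start, that of Hsph1 33 and that of Dnajb4 14, before the second of its listed starts. In the fifth inducible promoter, that of Hspb1 on the plus strand of chromosome 5, the short form occurred at 2 places between 117 and 90 bases before the start. The longer form was in 0.514% of all promoters and in 3 members, Dnajb6 and the neighbours Hspd1 and Hspe1, which are transcribed away from each other. The ER stress element (CCAAT and CCACG with any 9 bases between them, on either strand), through which unfolded protein in the endoplasmic reticulum acts on transcription, was in 0.13% of all promoters and in 3 of 11 members of the endoplasmic reticulum, 27.3%. The stretch of Hsp90b1 has it on the other strand:
Hspa5, chr2:34772019-34772049, plus strand: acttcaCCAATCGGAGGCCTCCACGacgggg
Hsp90b1, chr10:86705527-86705557, minus strand: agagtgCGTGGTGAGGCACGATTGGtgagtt
Dnajc3, chr14:118937821-118937851, plus strand: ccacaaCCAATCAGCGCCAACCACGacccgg

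A match describes letters in a window and is not a binding site. The levels below are UMIs of a gene per 1000000 UMIs of all cells of a class in 1 suffix. A ratio between classes was formed within a suffix that had 20 or more cells of both and 10 or more UMIs of the gene, on the log2 scale, with an exact binomial 95% interval that covers counting error only. A gene is called higher or lower where the median over suffixes was past 2-fold and every suffix had the same direction. There are no replicates and no p-values.

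Between fibroblasts and leukocytes the inducible members were mostly higher in fibroblasts and the constitutive members that were called were mostly lower. The inducible list summed to 790, 547, 635, 837, 996 and 1253 CPM in fibroblasts of suffixes 1 to 6. In leukocytes the inducible list summed to 266, 274, 245, 225, 229 and 219 CPM. The lowest fibroblast value was above the highest leukocyte value, so the classes did not overlap. The log2 ratio of the inducible sums was 1.57, 1.00, 1.37, 1.89, 2.12 and 2.52, with a median of 1.73. The constitutive list went the other way, with 1757, 1993, 1644, 1717, 1515 and 1776 CPM in fibroblasts. In leukocytes the constitutive list summed to 2898, 2838, 3183, 2871, 3007 and 3281 CPM. Here too the classes did not overlap, with a median log2 ratio of -0.81 and a range of -0.99 to -0.51. This sum is weighted towards the most abundant constitutive members, Hsp90ab1 and Hspa8, and no sum without them was made. Taken gene by gene, the median constitutive member was at -0.07. The sum over all 65 members hardly differed, with a median log2 ratio of -0.09.

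Counted by gene, 14 of the 65 members were called higher in fibroblasts and 5 lower. Over all 13768 genes measured, 24.1% were called higher and 5.64% lower, so the members' counts were close to the background and the median member, at 0.105, was below the median gene at 0.206. The groups divided unevenly. Of the 8 inducible members 5 were called higher (Hspa1a, Hspa1b, Dnajb4, Hspb1 and Hspb8), none lower and 3 neither. Of the 21 constitutive members Dnajb2 was called higher and Hspa8, Dnajc2, Dnajc7 and Dnajc9 lower. Among those of the endoplasmic reticulum, Hspa13, Dnajc10 and Dnajc25 of 13 were higher, and of the mitochondrial members only Dnajc15 of 10 was called, lower.

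**Figure D1:**
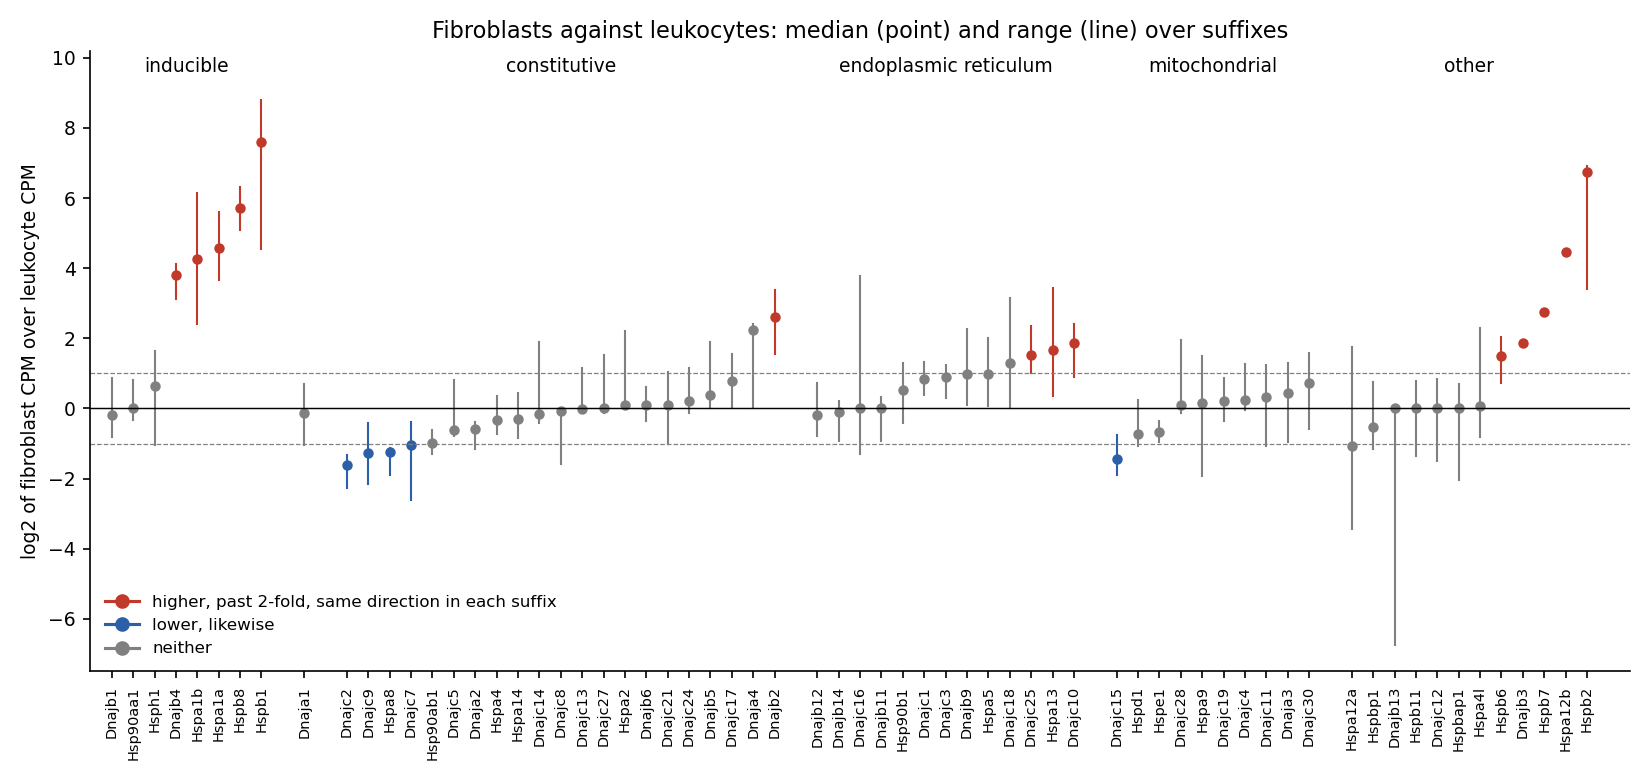
Median (point) and range over suffixes (line) of the log2 ratio of fibroblast CPM to leukocyte CPM for each of the 65 members, grouped by role, with Dnaja1, the intermediate case, between the inducible and the constitutive members. Red points are called higher, blue points lower and grey points neither; dashed lines mark 2-fold. The highest points are Hspb1, Hspb2 and Hspb8, and Hspa8 lies below the lower dashed line.

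Hspb1, the small heat shock protein Hsp25, had the widest difference among the called members. It was at 231, 70.2, 159, 322, 416 and 666 CPM in fibroblasts of suffixes 1 to 6. The mix of fibroblast subtypes, described below, differed by suffix. Col13a1-like cells numbered 66, 14, 12, 614, 29 and 22 of these fibroblasts. Col14a1-like cells, lower in Hspb1, numbered 148, 17, 9, 338, 5 and 3. The part of this mix in the spread of Hspb1 and of the inducible sum over suffixes was not tested. The endothelium held 160, 112, 132, 145, 318 and 114 CPM of Hspb1. In leukocytes Hspb1 was at 3.18, 0.28, 0.824, 13.7, 1.38 and 0 CPM, below every fibroblast and endothelial value. Over the 5 suffixes with enough UMIs the median log2 ratio of fibroblasts to leukocytes was 7.59, from 4.55 (4.17 to 4.97) in suffix 4 to at least 8.81 in suffix 6, where no UMI was counted in 529 leukocytes. Its 2 highest leukocyte values, in suffixes 4 and 1, were in the suffixes with the most Col1a2 in leukocytes, 20.7 and 8.74 CPM. Leukocyte Col1a2 was itself limited by the choice of cells, and the part of free RNA in these Hspb1 values was not tested. At 1000 UMIs a cell, 20.6% of fibroblasts (19.0 to 22.3), 14.8% of endothelial cells (11.96 to 18.1) and 0.25% of leukocytes (0.137 to 0.42) held an Hspb1 UMI. Before thinning the shares were 38.6%, 24.96% and 1.14%, at median depths of 2912.5, 1864 and 2756.5 UMIs. Without Hspb1 the inducible list had a median log2 ratio of 1.18 between fibroblasts and leukocytes, with 0.80 the lowest and 1.43 the highest. That remaining sum, 515 CPM in fibroblasts and 212 in leukocytes of suffix 4, owes much of its difference to Dnajb4. Over the suffixes Dnajb4 was at 170.1 to 285 CPM in fibroblasts and 9.88 to 22.7 in leukocytes, and no sum without it was made. Of 60-base windows in its last 500 transcript bases, 13.4% also occur in the pseudogene Hsp25-ps1, so some of its reads could have been lost or shared.

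Hspa1a and Hspa1b, the stress-inducible Hsp70 genes, were rare in every class. Hspa1a was at 38.9, 0, 56.7, 41.5, 17.3 and 15.9 CPM in fibroblasts. In leukocytes it was at 0.795, 2.52, 2.75, 1.5, 1.38 and 2.97 CPM. The fibroblast value was the higher in each suffix other than suffix 2, where 42 fibroblasts held no Hspa1a UMI. In the 4 suffixes with enough UMIs the log2 ratio was 5.61 (3.06 to 10.9), 4.37 (2.47 to 6.05), 4.79 (3.65 to 6.25) and 3.65 (0.38 to 5.98). Hspa1b could be compared in suffix 1, at 2.41 (0.59 to 4.84), and in suffix 4, at 6.14 (3.63 to 11.5). At 1000 UMIs a cell 3.02% of fibroblasts (2.37 to 3.78) and 0.179% of leukocytes held an Hspa1a UMI, and 9.79% of fibroblasts before thinning. No 60-base window in the last 500 transcript bases of Hspa1a and Hspa1b occurs in another gene, although the genes are near copies. Reads from those bases could thus be told apart, and bases further upstream were not examined.

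Dnajb4 and Hspb8 set fibroblasts apart from both other classes. Dnajb4, a J-domain partner of Hsp70, was at 194, 196, 170.1, 187, 268 and 285 CPM in fibroblasts. In the endothelium Dnajb4 was at 22.5 to 42.1 CPM and in leukocytes at 9.88 to 22.7. No endothelial or leukocyte value reached a fibroblast value, and the log2 ratio to leukocytes lay between 3.12 and 4.13 in all 6 suffixes, with a median of 3.82. Against endothelium the median Dnajb4 ratio was 2.91, from 2.59 (1.66 to 3.72) to 3.13 (1.72 to 4.68). Hspb8, a small heat shock protein that works with Bag3 in the autophagy of misfolded clients, was at 54.1, 42.1, 45.4, 59.7, 8.66 and 31.7 CPM in fibroblasts. It was at 2.87 to 6.89 CPM in the endothelium, and in leukocytes 2 UMIs were counted in suffix 1 and none elsewhere. In suffix 4, with 390 Hspb8 UMIs in fibroblasts and none in leukocytes, the log2 ratio was at least 6.32.

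The other inducible members were not called. Dnajb1, the J-domain partner induced with Hspa1a, was at 73.5, 28.1, 45.4, 43.5, 34.6 and 0 CPM in fibroblasts. In leukocytes Dnajb1 was at 41.3, 49.2, 63.1, 23.96, 39.6 and 53.0 CPM, within the same span. Its log2 ratio was 0.83 (0.32 to 1.36) in suffix 1 and 0.86 (0.52 to 1.21) in suffix 4, the best counted, and below 0 in the other 4. Hsp90aa1, the inducible cytosolic Hsp90, was at 125 to 238 CPM in fibroblasts and 136 to 179 in leukocytes, with a median log2 ratio of 0.01 and an interval of -0.12 to 0.17 in suffix 4. Hsph1, a nucleotide exchange factor of Hsp70, was lower in fibroblasts of suffixes 1 and 4, at -1.04 (-1.99 to -0.15) and -0.69 (-1.13 to -0.24), but above 0 in the other 4, at 0.52 to 1.63 on 3 or fewer UMIs in fibroblasts, so that the median was 0.64. Dnaja1, a general J-domain protein that responds to heat less than Dnajb1, had a median of -0.12 with suffix 4 at 0.69 (0.51 to 0.86). The inducible group thus held both members far apart between classes and members whose ratio was near 1.

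**Figure D2:**
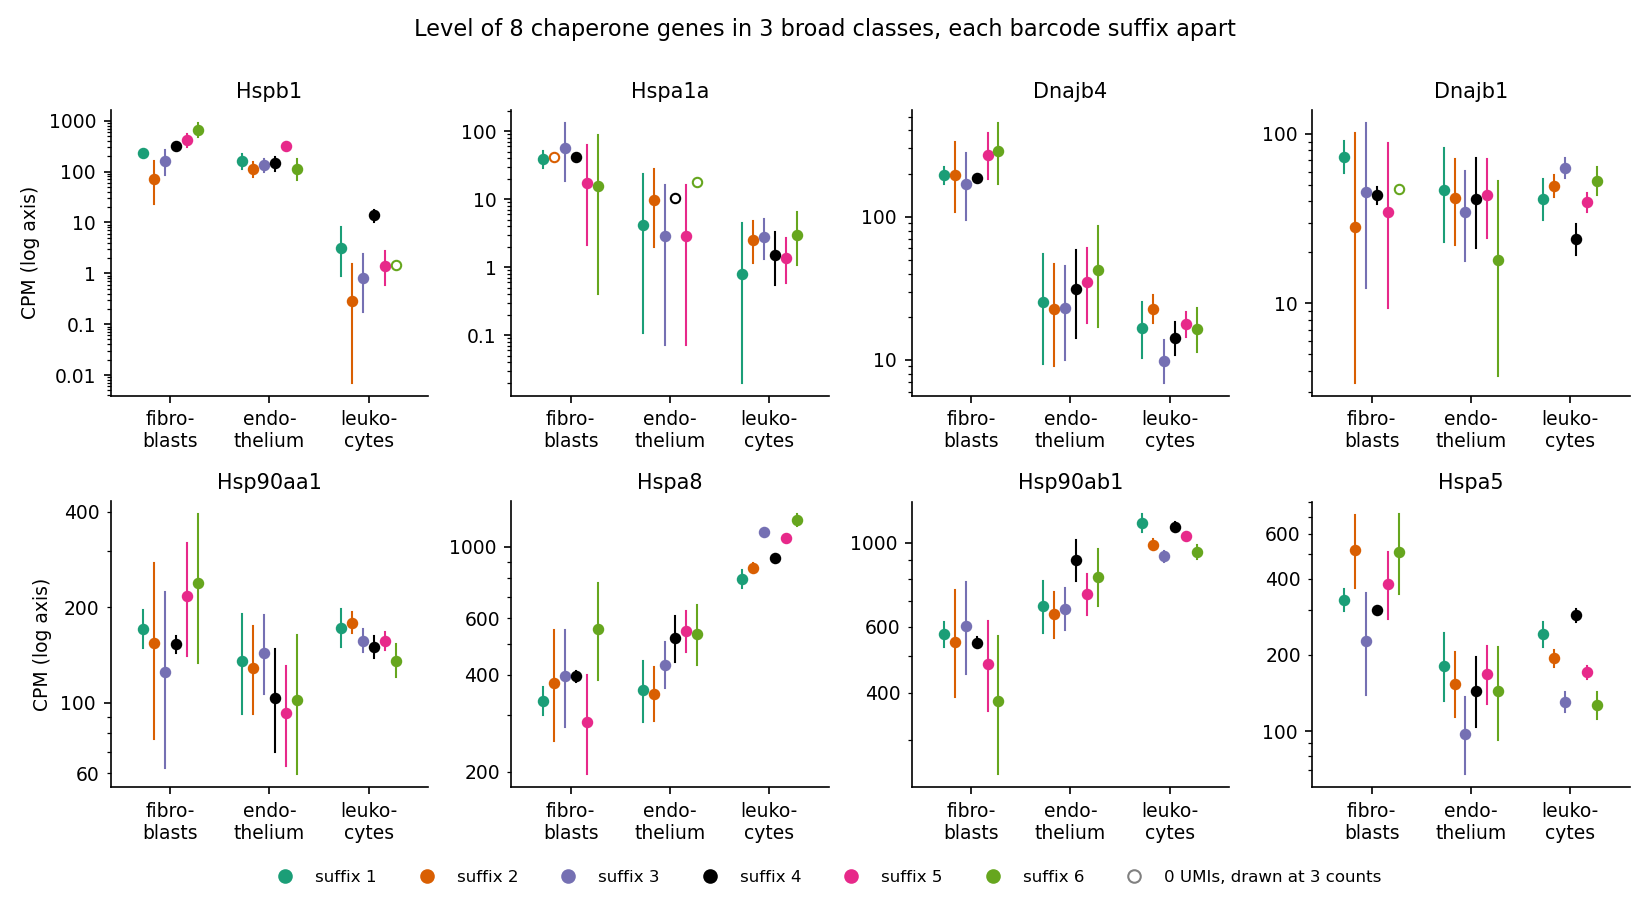
Level in CPM (log axis) of 8 members in fibroblasts, endothelium and leukocytes, 1 point for each barcode suffix with its exact Poisson 95% interval; open points stand for 0 UMIs and are drawn at the level of 3 counts. For Hspb1 and Dnajb4 all fibroblast points lie above all leukocyte points, and for Hspa8 and Hsp90ab1 below them; the Dnajb1 and Hsp90aa1 points overlap.

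Whether inducible members were counted in the same cells differed from pair to pair, on counts too sparse to read a relation from. Among fibroblasts thinned to 1000 UMIs, 21 held an Hspa1a UMI in suffix 1 and 48 in suffix 4. Dnajb1 was found in 0 of those 21 and 2 of those 48 cells, against 5.72% and 3.56% of the fibroblasts without Hspa1a. Hspa1b was found in none of either, against 1.06% and 1.67% of the others. Hspb1 was found in 4 of the 21 and 12 of the 48, 19.1% and 25.0%, against 17.2% and 21.5% of the fibroblasts without Hspa1a. Dnajb4 was found in 20 of 85 and 68 of 386 fibroblasts with Hspb1, 23.5% and 17.6%, against 15.7% and 15.3% of those without. Fos, an immediate early gene known to respond to dissociation, was in 71.4% and 81.3% of the Hspa1a cells and in 66.1% and 65.4% of the others. The immediate early list holds 17 genes that are no members. It summed to 10510 to 14290 CPM in fibroblasts, 8570 to 9808 in endothelium and 4915 to 5696 in leukocytes. Between fibroblasts and leukocytes the immediate early genes thus moved with the inducible list. The median log2 ratios of the lists parted in some comparisons described below. They were 1.02 (immediate early) and -0.33 (inducible) for myeloid against lymphoid cells and 0.67 and -0.86 for Col14a1-like against Col13a1-like fibroblasts. For mural cells against fibroblasts they were -0.81 and -0.05. Both were positive in the remaining comparisons. Without Hspb1 the inducible median turned to -0.24 for endothelium against leukocytes. It stayed positive for fibroblasts against leukocytes, at 1.18, and against endothelium, at 1.34. For ductal myofibroblast-like against Col13a1-like fibroblasts the inducible median was 0.13, with suffix 1 at -0.06 (-0.352 to 0.245). Without Hspb1 it was 0.03 there, and -0.05 for Col14a1-like against Col13a1-like fibroblasts. The part of the immediate early genes in the inducible difference was not tested.

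Hspa8 and Hsp90ab1, the constitutive cytosolic Hsp70 and Hsp90, were higher in leukocytes. Hspa8 was at 332, 379, 397, 396, 286 and 555 CPM in fibroblasts. Leukocytes held 796, 857, 1111, 922, 1064 and 1212 CPM of Hspa8, above every fibroblast value. The median log2 ratio was -1.24, from -1.9 (-2.44 to -1.41) in suffix 5 to -1.13 (-1.65 to -0.65) in suffix 6. The endothelium, at 350.3 to 547 CPM of Hspa8, overlapped with fibroblasts and had a median log2 ratio to leukocytes of -1.17. Of 60-base windows at the 3′ end of Hspa8, 81.4% also occur in annotated pseudogenes, so its count depends on how reads with several matches were treated. Hsp90ab1 was at 573, 547, 601, 544, 476 and 381 CPM in fibroblasts and 921 to 1127 in leukocytes, which did not overlap. Its median log2 ratio of -0.997 stopped just short of 2-fold, and it was lower in 6 of 6 suffixes.

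Other constitutive members split in both directions. Dnajb2, a J-domain protein that passes clients to the proteasome, was at 90.4, 126, 56.7, 63.5, 43.3 and 31.7 CPM in fibroblasts and at 8.74 to 16.5 in leukocytes, with a median log2 ratio of 2.6. The ribosome-associated Dnajc2 was at 15.9 to 32.9 CPM in fibroblasts and 74.7 to 81.8 in leukocytes, a median of -1.6. Dnajc9, which chaperones histones H3 and H4, had a median of -1.28, of which suffix 4 gave -0.41 (-0.84 to 0.03). Dnajc7, which binds both Hsp70 and Hsp90, had a median of -1.05, but its leukocyte level ran from 56.9 CPM in suffix 4 to 315 in suffix 3, a spread that is taken up below under B cells. The 16 other constitutive members were not called.

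In the endoplasmic reticulum, Hspa5 (BiP, the Hsp70 of this compartment) was higher in fibroblasts than in endothelium. It was at 330.2, 519, 227, 299.5, 381 and 507 CPM in fibroblasts. In the endothelium Hspa5 was at 181, 154, 97.7, 145, 168 and 144 CPM, below every fibroblast value. The median log2 ratio was 1.2, with the lowest suffix at 0.86 (0.41 to 1.35) and the highest at 1.81 (1.01 to 2.64). Against leukocytes Hspa5 was not called, with a log2 ratio from 0.07 (-0.04 to 0.17) in suffix 4 to 2.0 (1.43 to 2.54) in suffix 6. Hsp90b1 (Grp94) was at 344 to 604 CPM in fibroblasts and 218 to 463 in leukocytes, and its ratio changed sign between suffix 4, at -0.43 (-0.52 to -0.34), and the other 5. The reductase Dnajc10 and the Hsp70-like Hspa13, called higher in fibroblasts, had medians of 1.86 and 1.67. The endoplasmic reticulum list as a whole had a median log2 ratio of 0.78, from 0.03 to 1.43. Of 16 other genes of the unfolded protein response, which are no members, Pdia4 and Ddit3 were called higher in fibroblasts than in leukocytes, a smaller share than the 24.1% of all genes.

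The mitochondrial members differed little between these classes. Hspd1 and Hspe1 encode the mitochondrial chaperonin and its lid. Hspe1 was at 188, 154, 204, 199, 242 and 222 CPM in fibroblasts and at 286 to 331 in leukocytes, lower in 6 of 6 suffixes with ratios of -0.96 to -0.36, short of 2-fold. Hspd1 ran from -1.07 to 0.25 and Hspa9, the mitochondrial Hsp70, from -1.92 to 1.51, so neither had 1 direction. Dnajc15, a J-domain protein of the import motor in the inner membrane, was at 25.3 to 79.3 CPM in fibroblasts and 53.2 to 135 in leukocytes, with a median log2 ratio of -1.44. The mitochondrial list had a median of -0.36. Windows shared with pseudogenes made up 46.0% at the 3′ end of Hspe1.

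Of the 21 cochaperones and regulators that are no members, Hsf2, Bag2, Bag3, Bag5 and Cryab were called higher in fibroblasts than in leukocytes and none lower, where 24.1% and 5.64% of all genes were, so this share lies near that of all genes. Bag3 is known as the partner of Hspb8, and Cryab is a small heat shock protein. None of 7 subunits of the cytosolic chaperonin TRiC was called, and the TRiC list summed to a median log2 ratio of -0.55.

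In the endothelium Hspb1 was high, as in fibroblasts, while the sum of the other inducible members was not above that of leukocytes. Against leukocytes, 8 of 60 measured members were called higher and 3 lower, where 20.2% and 6.84% of all genes were, and the inducible list had a median log2 ratio of 0.57. Without Hspb1 the inducible list turned to -0.24, from -0.33 to -0.05, with 0 inside the interval of every suffix. Its members did not all go with this sum. Dnajb4 was at 22.5 to 42.1 CPM in endothelium and 9.88 to 22.7 in leukocytes, at a median log2 ratio of 1.05. It was higher in 5 of 6 suffixes and so not called, and every interval held 0. Hspb8 had 1 or 2 UMIs in the endothelium of each suffix. Hspb1 itself had a median of 6.8 with the same direction in 6 of 6 suffixes. Hspa1a was called at a median of 1.0 from 2 suffixes whose intervals, -0.59 to 3.94 and -5.37 to 2.88, hold 0. Hspe1, at -1.09, Dnajc15, at -1.9, and Hspa8 were the lower members. Between fibroblasts and endothelium 7 of 64 members were called higher in fibroblasts and 3 lower, against 10.8% and 14.7% of all genes. Dnajb4, Hspb8, Hspb2, Hspa1a, Dnajb2, Hspa5 and Hspa13 were the higher ones and Hspa12b, Dnajc8 and Dnajc12 the lower ones, and without Hspb1 the inducible list had a median log2 ratio of 1.34.

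Hspa12b and Dnajc8 were the members called higher in endothelium than in both fibroblasts and leukocytes. Hspa12b, a distant Hsp70 relative known for its expression in endothelial cells, was at 54.8, 45.0, 51.7, 55.1, 63.7 and 60.1 CPM there. In leukocytes 0 to 2 Hspa12b UMIs were counted in each suffix, and in fibroblasts it was at 0 to 22.7 CPM. The log2 ratio of endothelium to leukocytes had a median of 7.13, counting suffixes 1 and 3, with no UMI in leukocytes, at their bounds of 4.52 and 5.97. Dnajc8, a nuclear J-domain protein linked to splicing, was at 320.5, 254, 233, 379, 307 and 222 CPM in endothelium. In fibroblasts Dnajc8 was at 45.4 to 135 CPM and in leukocytes at 112 to 141, so the endothelium overlapped with neither. Its median log2 ratio was 1.08 to leukocytes, and -1.29 for fibroblasts against endothelium. Dnajb2, Dnaja4 and Dnajb5 were also called higher in endothelium than in leukocytes, at medians of 1.34, 1.68 and 1.14 on low counts.

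Fibroblast subtypes could be compared in suffixes 1 and 4, which held 185 and 338 ductal myofibroblast-like, 66 and 614 Col13a1-like and 148 and 338 Col14a1-like fibroblasts. The members were left out of the genes used for clustering. Hspb1 divided the subtypes. It was at 454 and 656 CPM in ductal myofibroblast-like cells, at 431 and 499 in Col13a1-like cells and at 47.8 and 40.3 in Col14a1-like cells. The first pair of subtypes was close, and the Col14a1-like cells were far below both. The log2 ratio of Col14a1-like to Col13a1-like cells was -3.17 (-4.07 to -2.36) in suffix 1 and -3.63 (-4.05 to -3.24) in suffix 4. At 1000 UMIs a cell, 32.8% of ductal myofibroblast-like, 29.8% of Col13a1-like and 3.01% of Col14a1-like cells held an Hspb1 UMI, although the Col14a1-like cells had the highest median depth of the subtypes, 3416 UMIs against 2411 and 2666. Before thinning the shares were 54.1%, 53.2% and 11.7%. Leukocytes, at 0.25%, lay below all 3.

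**Figure D3:**
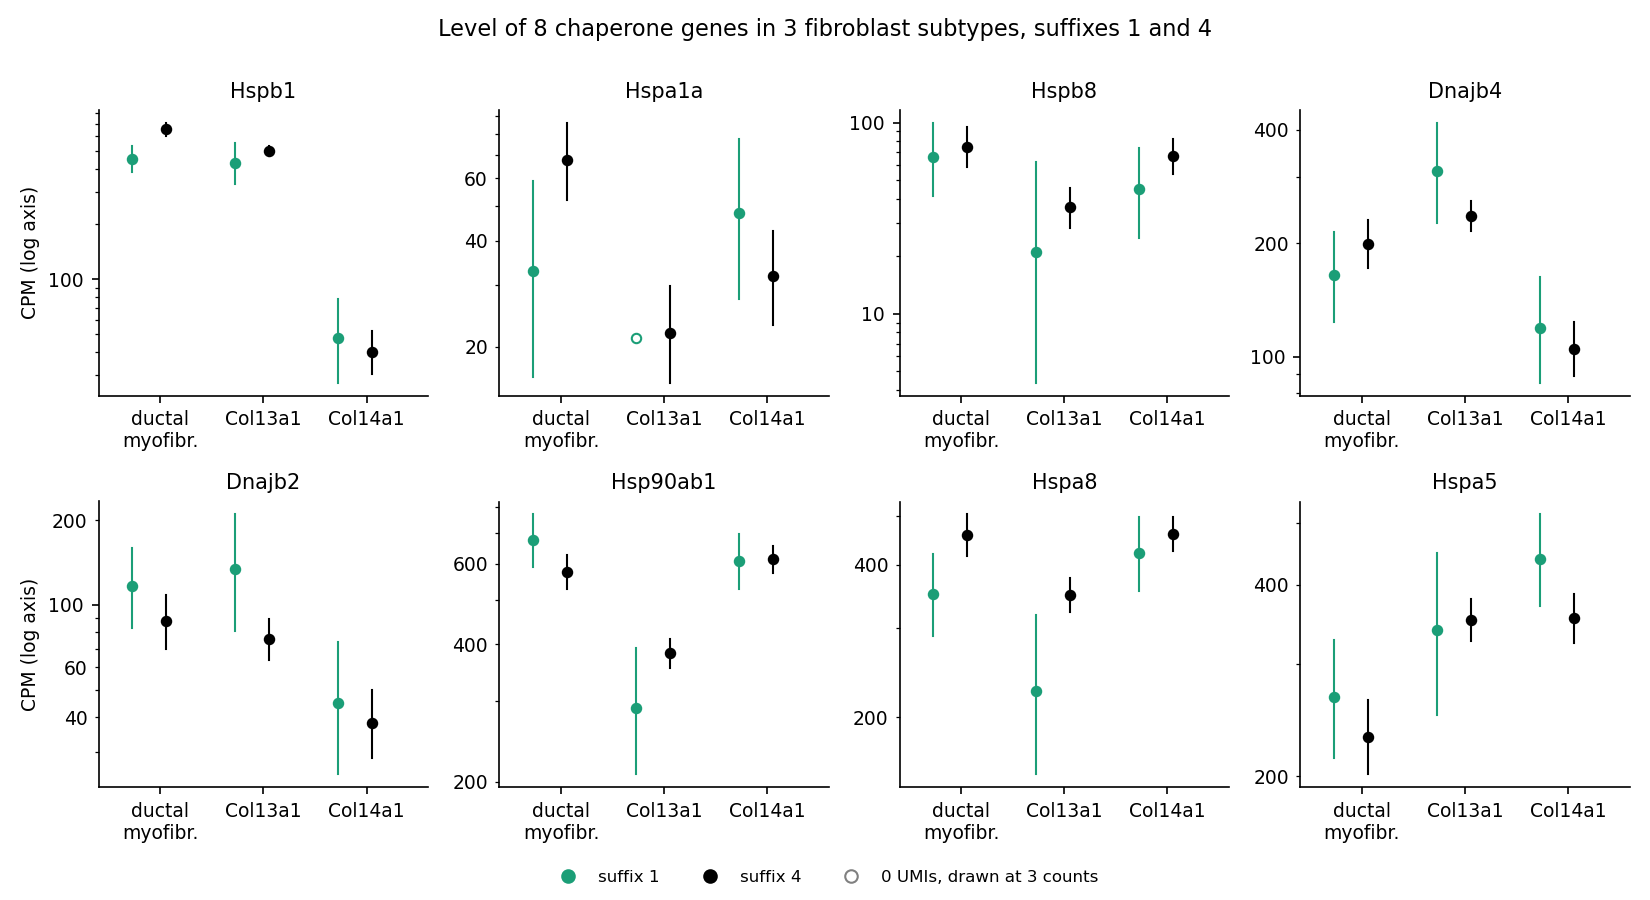
Level in CPM (log axis) of 8 members in ductal myofibroblast-like, Col13a1-like and Col14a1-like fibroblasts, with 1 point for suffix 1 and 1 for suffix 4, exact Poisson 95% intervals, and open points for 0 UMIs drawn at the level of 3 counts. The Hspb1 points of Col14a1-like cells lie at 47.8 and 40.3 CPM, and Dnajb4 and Dnajb2 are also lowest there.

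Dnajb4 and Dnajb2 followed Hspb1 in being lowest in Col14a1-like cells, with smaller steps. Dnajb4 was at 164 and 199.7 CPM in ductal myofibroblast-like, 311 and 237 in Col13a1-like and 119 and 105 in Col14a1-like cells, with log2 ratios of -1.38 (-2.04 to -0.73) and -1.17 (-1.45 to -0.9) between the last pair. Dnajb2 was at 117 and 87.4, 134 and 75.8, and 44.8 and 38.1 CPM in the same order, at -1.58 (-2.66 to -0.53) and -0.99 (-1.47 to -0.53). In all, 6 of 61 members were called higher in Col14a1-like than in Col13a1-like cells and 8 lower, against 10.9% and 15% (1676 of 11148) of all genes. The inducible list had log2 ratios of -0.65 and -1.06 in suffixes 1 and 4, with the median without Hspb1 at -0.05. Hspb11 and Dnajc21 were called higher at medians of 1.6 and 1.47, with 2 UMIs each in Col13a1-like cells of suffix 1. Hspa4l, an Hsp110-type exchange factor, was lower at -1.17.

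The Hsp70 genes ran differently from Hspb1. Hspa1a was at 32.9 and 67.6 CPM in ductal myofibroblast-like cells, at 0 and 21.9 in Col13a1-like cells and at 47.8 and 31.7 in Col14a1-like cells. Col13a1-like cells were lowest in both suffixes. The log2 ratio of ductal myofibroblast-like to Col13a1-like cells was at least 0.63 in suffix 1, where 66 cells held no UMI, and 1.62 (1.04 to 2.22) in suffix 4. Hspb8 was also lowest in Col13a1-like cells, with 21.2 and 36.1 CPM, against 65.8 and 74.9 in ductal myofibroblast-like and 44.8 and 66.9 in Col14a1-like cells. The log2 ratio of ductal myofibroblast-like to Col13a1-like cells was 1.63 (-0.1 to 4.02) and 1.06 (0.56 to 1.55), and that of Col14a1-like to Col13a1-like cells, at a median of 0.99, was not called. In suffix 4 alone, Hspa1b was higher both in ductal myofibroblast-like cells, 1.99 (0.77 to 3.33), and in Col14a1-like cells, 2.72 (1.66 to 3.94), than in Col13a1-like cells. The immediate early list was also lowest in Col13a1-like cells, at 7756 and 10660 CPM, against 17770 and 23690 in ductal myofibroblast-like and 13910 and 15110 in Col14a1-like cells, and its part in these differences was not tested.

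Col13a1-like cells were also lowest in the constitutive pair Hsp90ab1 and Hspa8. Hsp90ab1 was at 676 and 576 CPM in ductal myofibroblast-like, 290 and 383 in Col13a1-like and 609 and 614 in Col14a1-like cells. Hspa8 was at 349.8 and 458, 226 and 349, and 421 and 461 CPM. Col13a1-like cells also had the highest median mitochondrial share, 3.99% and 4.03% against 2.41% to 3.13% in the other subtypes, and the lowest share of ribosomal protein UMIs, 9.49% and 12.4% against 15.2% to 22.0%, and the part of these in the lower levels was not tested. Neither was past 2-fold in the median, with Hsp90ab1 at 1.22 (0.74 to 1.74) and 0.59 (0.43 to 0.75) for ductal myofibroblast-like against Col13a1-like cells. Hspa5 showed no such order, at 266 and 231, 339 and 353, and 439 and 355 CPM. Of 59 members measured, 6 were called higher and 5 lower in ductal myofibroblast-like than in Col13a1-like cells, where 10.5% and 15.5% of all genes were. Hspd1 was called higher at a median of 1.56, on 2 UMIs in Col13a1-like cells of suffix 1, while suffix 4 gave 0.45 (-0.02 to 0.91). Hspa13 was called lower at -1.37. Hspb7 and Hspb2, small heat shock proteins of striated muscle, had values in suffix 4 only, at 4.16 (2.46 to 6.53) and -2.7 (-3.56 to -1.94).

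Most fibroblasts in none of the 3 subtypes were in 3 clusters without a name, M4, M6 and M8, with 410, 172 and 76 cells. In cluster M4, led by Cdh22 and Rbp4, Hspb1 was at 81.8 and 155 CPM in suffixes 1 and 4, between the Col14a1-like level and the others. In cluster M6, led by heart muscle genes such as Myl4 and Tnnt2, Hspb1 was at 248 and 361 CPM. Cluster M8, with 65 cells in suffix 4, had more Hspa1a and Hspb8 than the 3 subtypes, M4 and M6 in that suffix, at 132 (90.2 to 186) and 128 (86.8 to 181) CPM.

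Mural cells, which include pericytes and smooth muscle, numbered 62, and only suffix 4, with 44, could be compared. There the inducible list summed to 810 CPM, against 837 in fibroblasts, and the constitutive list to 2281 against 1717. Of 64 members 8 were called higher and 3 lower in this single suffix, where 19.0% and 7.51% of all genes were. Hspb2 was the best counted of them, at 278 CPM (24 UMIs) against 59.7 in fibroblasts, a log2 ratio of 2.22 (1.56 to 2.81). Within fibroblasts of suffix 4 Hspb2 was highest in Col13a1-like cells, at 101 CPM against 15.6 in ductal myofibroblast-like and 36.7 in Col14a1-like cells. Its exons overlap those of Cryab on the other strand, and whether strand was used in the counting is not stated in the labels. Dnajc8, at 243 CPM (21 UMIs), was higher at 1.15 (0.45 to 1.77), and this level lay within its span over suffixes in endothelium. Hsp90aa1, at 255 CPM, was not called at 0.74 (0.06 to 1.35). Hspb8 had no UMI in 44 mural cells and was at least 0.78 lower on the log2 scale. The other called members rested on 1 to 11 mural UMIs, most with intervals that hold 0.

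**Figure D4:**
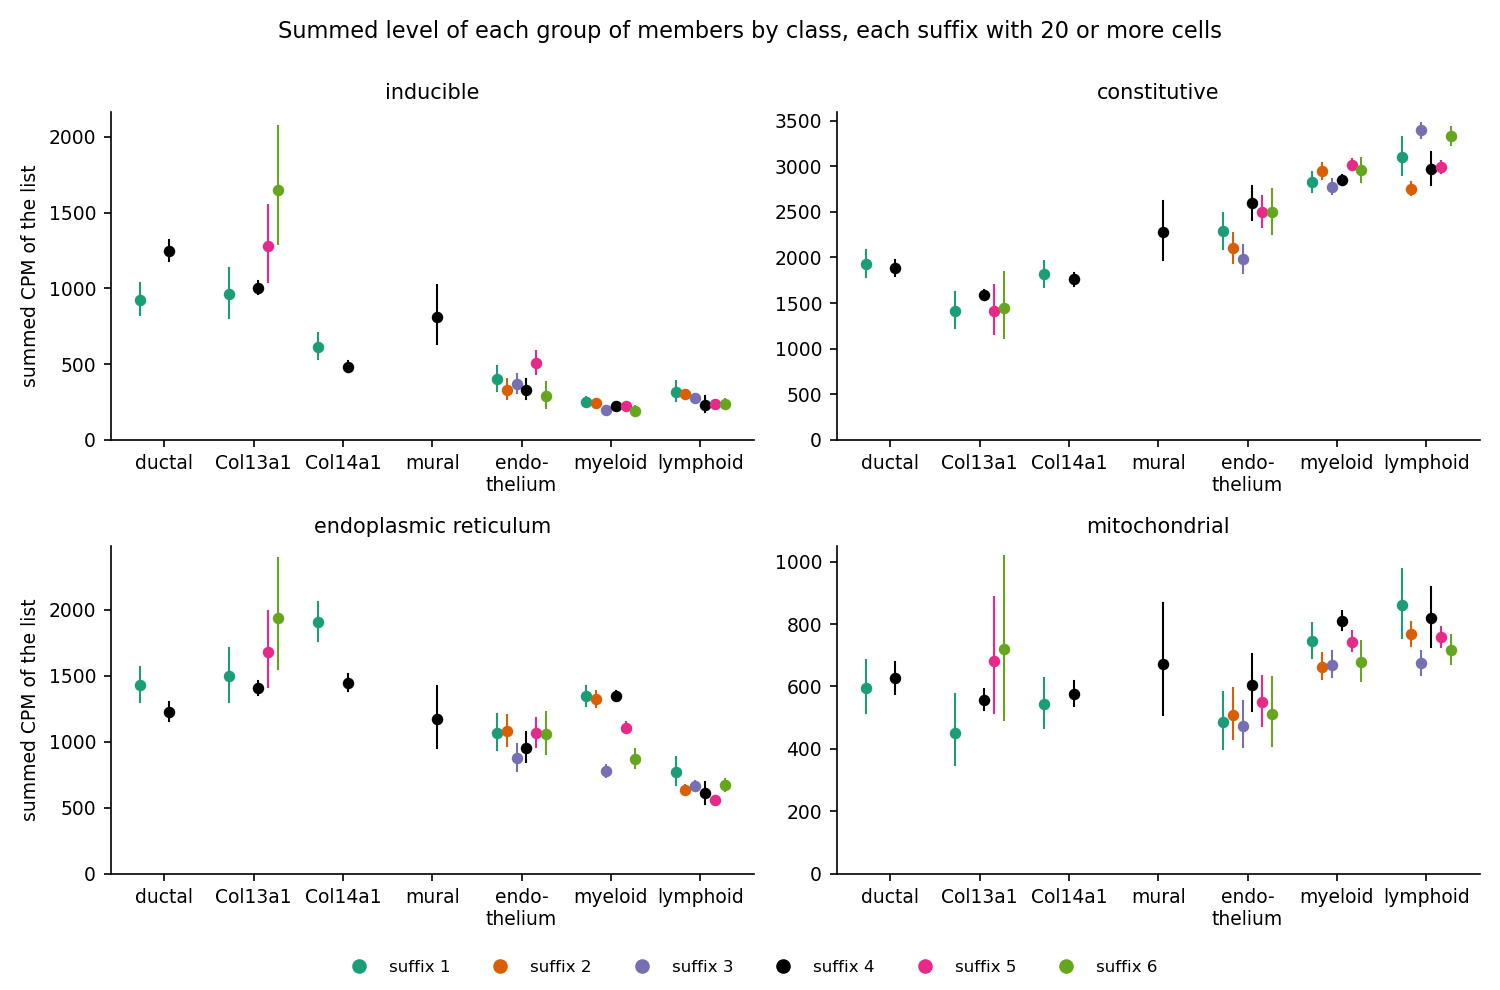
Summed level in CPM of the inducible, constitutive, endoplasmic reticulum and mitochondrial members in 3 fibroblast subtypes, mural cells, endothelium, myeloid and lymphoid leukocytes, 1 point for each suffix with 20 or more cells and its exact Poisson 95% interval. The inducible sum is 924 and 1247 CPM in ductal myofibroblast-like and 612 and 481 CPM in Col14a1-like cells of suffixes 1 and 4, and the leukocyte classes lie below.

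Within leukocytes, the summed chaperones of the endoplasmic reticulum were higher in myeloid than in lymphoid cells. The endoplasmic reticulum list had a median log2 ratio of 0.9, from 0.24 to 1.15. Of its 13 members 3 were called higher in myeloid cells, and of 16 other unfolded protein response genes 7 were. Of 59 members measured 6 were called higher and 6 lower, against 17.7% and 13.3% of all genes. Hsp90b1 was at 517, 466, 224, 488, 385 and 260.4 CPM in myeloid cells and at 164 to 215 in lymphoid cells, with a median log2 ratio of 1.23. The smallest Hsp90b1 ratios, 0.06 (-0.16 to 0.27) and 0.36 (0.07 to 0.65), were in suffixes 3 and 6, where classical monocyte-like cells made up most of the myeloid cells. By class, Hsp90b1 was at 465 to 658 CPM in alveolar macrophage-like cells, 161 to 236 in classical monocyte-like cells and 123 to 166 in T cell-like cells. Hspa5 followed it, at 207 to 365 CPM in alveolar macrophage-like, 89.7 to 158 in classical monocyte-like and 67.4 to 153 in T cell-like cells. B cell-like cells, at 163 to 285 CPM of Hsp90b1 and 92.3 to 207 of Hspa5, overlapped with classical monocyte-like cells in both genes. Dnajb14, a J-domain protein of the endoplasmic reticulum membrane, was at 101 to 161 CPM in myeloid and 12.3 to 27.0 in lymphoid cells, which did not overlap, with log2 ratios of 2.48 to 3.4.

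Hspa8 was highest in classical monocyte-like cells. They held 1291, 1462, 1940 and 1644 CPM of Hspa8 in suffixes 2, 3, 5 and 6. T cell-like cells held 878 to 1280 CPM, alveolar macrophage-like cells 707 to 888 and B cell-like cells 671 to 847. Within each of these 4 suffixes the classical monocyte-like value was the highest of the classes with 20 or more cells. Every leukocyte class with 20 or more cells in a suffix, other than the neutrophil-like cells, at 444 CPM (27 UMIs) in suffix 5, was above the 286 to 555 CPM of Hspa8 in fibroblasts. Hspa8 did not divide myeloid from lymphoid cells as wholes, with log2 ratios of -0.25 to 0.5.

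**Figure D5:**
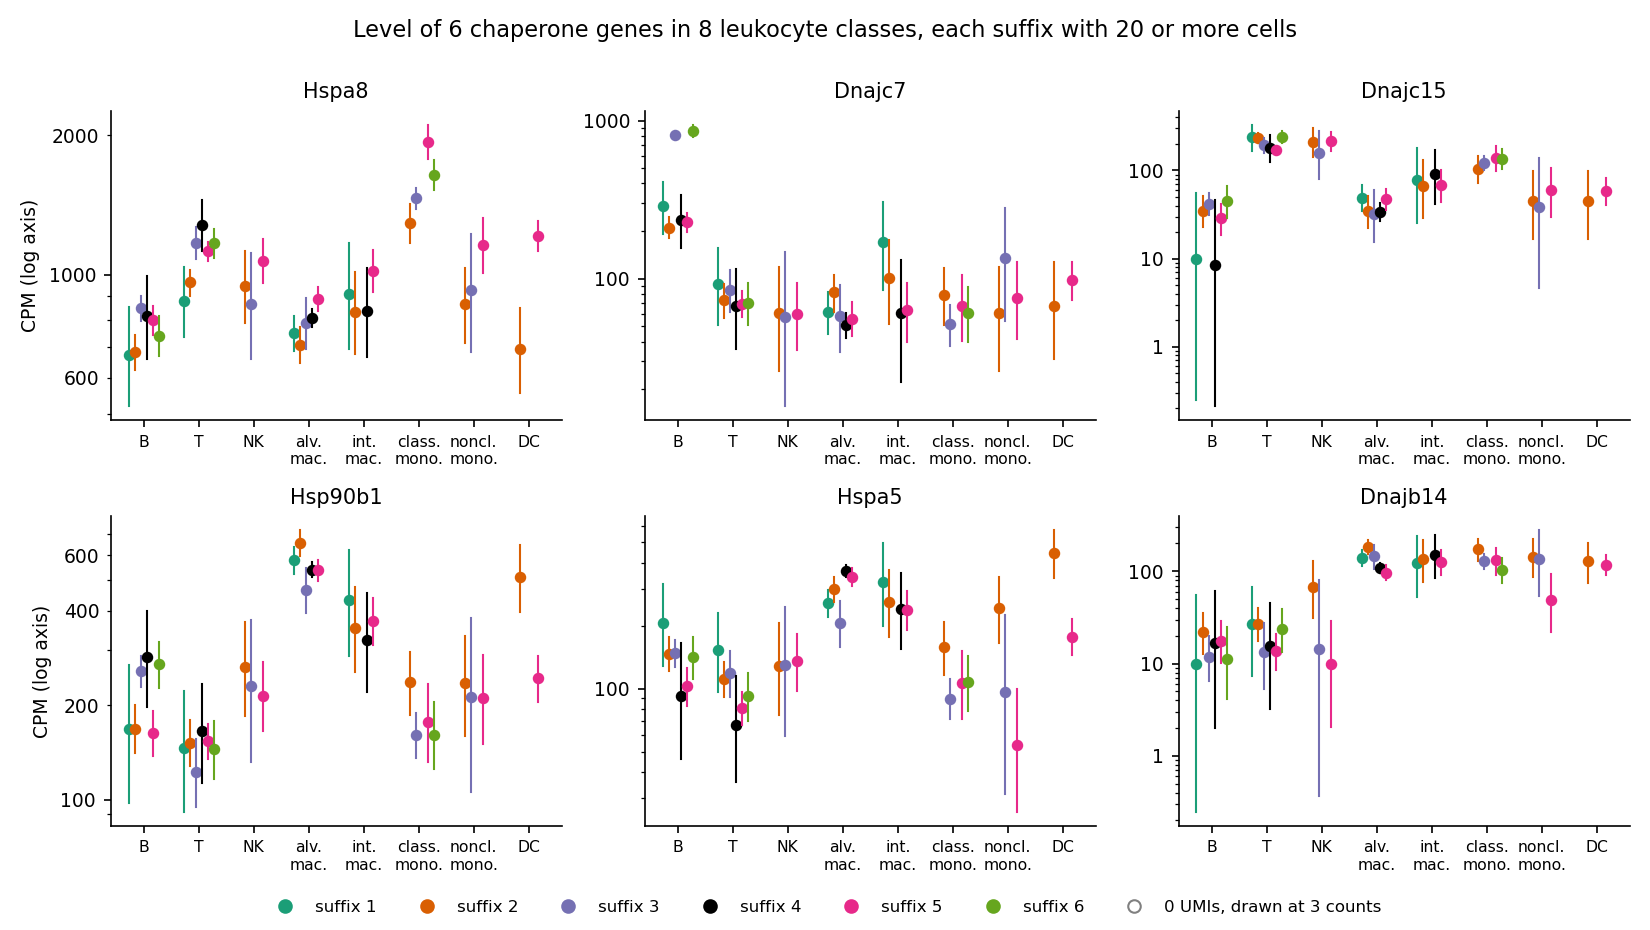
Level in CPM (log axis) of 6 members in B, T, natural killer (NK), alveolar and interstitial macrophage (mac.), classical and nonclassical monocyte (mono.) and dendritic cell (DC) classes, 1 point for each suffix with 20 or more cells, exact Poisson 95% intervals. Dnajc7 is highest in B cell-like cells and has 2 levels there, 807 and 859 CPM in suffixes 3 and 6 and 211 to 286 CPM in the others; Dnajc15 is highest in T and NK cell-like cells and Hsp90b1 in alveolar macrophage-like cells.

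Among the named leukocyte classes, Dnajc7 was highest in B cell-like cells. B cell-like cells of suffixes 1 to 6 held 286, 211, 807, 235, 228 and 859 CPM of Dnajc7, and the other named leukocyte classes 51.0 to 169.7. An unnamed cluster of 24 cells led by Siglech, which is in none of these classes, was at 1078 CPM. Suffixes 3 and 6 were thus more than 2-fold above the others. Those suffixes also had another make-up of B cells: cluster C5, led by Vpreb3, a gene of immature B cells, made up 77% and 77.9% of them, and 5.52% to 12.3% in the other suffixes. Within C5, Dnajc7 was at 690 (438 to 1036), 998 (933 to 1066) and 1024 (929 to 1126) CPM in suffixes 2, 3 and 6. Within C2, the other B cell-like cluster, it was at 189 (159 to 223), 249.7 (196 to 313) and 248 (165 to 359) CPM in the same suffixes. The difference between clusters was thus found inside each of these suffixes, and the Dnajc7 level within a cluster was alike across them. Which sample or day suffixes 3 and 6 stand for is not known here.

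Other members differed between leukocyte classes. Dnajc15 was at 170.0 to 240 CPM in T cell-like and 159 to 215 in natural killer cell-like cells, 104 to 138 in classical monocyte-like cells, and 8.39 to 45.3 in B cell-like cells. B cell-like cells were thus apart from the other lymphoid classes. Dnajc9 was at 68.4 to 99.7 CPM in lymphoid and 12.9 to 25.3 in myeloid cells, with a median log2 ratio of -2.23. Hspa12a, the relative of Hspa12b, was at 61.6, 40.2, 16.2, 42.4 and 43.2 CPM in alveolar macrophage-like cells of suffixes 1 to 5, while B and T cell-like cells held at most 2 UMIs in any suffix. In classical monocyte-like cells Hspa12a had no UMI. Outside the leukocytes, it was at 10.3 to 36.1 CPM in endothelium of the 6 suffixes, on 3 or more UMIs each. The inducible list was low in both lines, at a median log2 ratio of -0.33 for myeloid against lymphoid cells.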

How the data were processed

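The values used are UMI counts, whole numbers per gene and barcode, deposited by the authors as 1 table of all 6 samples. Per the submitters' processing notes the authors used STAR 2.5.1 and Cell Ranger 1.3.0 with mm10, and the labels do not say how reads with several matches were treated. A normalized table that the authors also deposited was not used.

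Of 10410 barcodes, the 9994 with at least 500 genes and no more than 10% of UMIs from mitochondrial genes were kept, and 75 doublets called per suffix (0.7505%) were removed with scanpy 1.11.5. Cells were clustered (2000 variable genes without members, list genes and sex-linked genes, 30 components, 15 neighbours, Leiden resolution 1.0, and 0.8 for mesenchymal cells). Clusters were named by 3 or more markers among 50 leading genes. UMIs were summed by class and suffix and given as CPM with exact Poisson 95% intervals. Ratios have exact binomial intervals, shares exact Clopper-Pearson intervals, and a count of 0 was set to 3 counts in a ratio. All intervals cover counting error only. No test was made: with no map from suffix to sample, the pooled table was treated as 1 sample, and suffixes serve only as separate readings of each ratio. The rule for calling genes was tested on simulated counts, in which well counted genes were changed by more than 2-fold. Members as sparse as Hspa1a, Hspb8 and Hspa1b, with 437, 614 and 174 UMIs over all barcodes, were below the depth of the changed genes. Whether the rule recovers a difference in such members was thus not tested. The interval of a ratio was also tested on simulated counts. The filtering, clustering and naming of cells were not tested in this way.

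Named members are 14 major chaperones and, for each comparison, up to 6 of the most different called members in each direction, with values in 2 or more suffixes. Others named are chosen after their values were seen. Members, lists and markers were chosen with earlier results of these data known. Alternatives covered filters, gates, scaling, thresholds, thinning to 1000 UMIs and leaving out suffixes.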

Additional observations from a re-analysis of the deposited data

How the results depend on the processing

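Of 874 alternative values of called named members, 873 kept their sign. The exception was Hspd1 in Col14a1-like against Col13a1-like fibroblasts, at -0.51 after thinning to 1000 UMIs, from 1 suffix. A call needs the same direction in every suffix. Leaving out suffixes, a minimum of 30 UMIs or the 1.5-fold threshold therefore could not change the sign of a called member. Among all values of named members, called or not, 342 moved past the counting interval of the reported value and 1733 stayed inside it. The 1.5-fold threshold leaves every ratio unchanged, so its values are among the 1733. Among list sums and counts of called members 31 moved and 108 did not. The inducible list between fibroblasts and leukocytes (1.73) was 1.91 with 1000 genes and at most 5% mitochondrial UMIs, 1.64 with CPM without mitochondrial and ribosomal genes, 1.52 with gates of 6 and 4 UMIs, 1.86 after thinning, 1.57 without suffix 4, 5 or 6, 1.89 without suffix 1, 2 or 3 and 1.18 without Hspb1. The constitutive list (-0.81) was -0.69, -1.02 and -0.90 in the first, second and thinned settings, -0.91 as a mean over cells, -0.89 without suffix 1, 2 or 4, -0.74 without suffix 3, 5 or 6 and -0.73 in suffixes 1 and 4 only. A 1.5-fold threshold raised the called members from 10 to 19 for fibroblasts against endothelium, 11 to 32 for mural cells, 11 to 20 and 14 to 31 for the subtypes and 12 to 19 for myeloid against lymphoid cells. The first of these counts was 16 as a mean over cells, and the last 6 after thinning and 21 in suffixes 1 and 4 only. Endothelium against leukocytes fell from 11 to 6 after thinning. The cause of these moves was not tested, other than that thinning leaves fewer UMIs. Mural cells could not be compared under the stricter cell filter or without suffix 4. The alternatives that leave out suffixes and Hspb1 were chosen after seeing the data. No paired analysis was possible because the labelled groups hold 1 sample each and could not be matched to suffixes; the class ratios are already taken within a suffix, with no test.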

Other observations

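A cluster of 24 cells without a name, led by Sec14l3, Ccdc153 and Dynlrb2, genes known from ciliated cells, held the highest Hspa4l of any cluster, at 750 CPM (627 to 891). Dnajb13, a J-domain protein of cilia and sperm tails, was at 98.1 CPM (57.2 to 157) in the same cluster. Dnajc15 was at 306 CPM there. A further unnamed cluster of 24 cells, led by Siglech and Bst2, held the Dnajc7 level given above, 1078 CPM, close to the level of the Vpreb3-led B cell-like cluster. Both clusters were chosen after their values were seen, and both pool cells of several suffixes.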
